A study of Mus musculus with 15 samples.

Results

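The 41 genes described here are interferon-stimulated genes and genes of the RIG-I pathway, measured by RNA-seq in the livers of infant mice of a C57 and a BALBc strain. They were taken by symbol from a table of 54532 genes. All 41 are in the table, and 39 of them reached 1 FPKM (fragments per exon length and library size, a level per length) in at least 3 libraries, as did 13026 genes in all. Mx1, with at most 1.16 FPKM, and Oas3, with at most 0.859 FPKM, did not and were not tested.

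The livers come from a study of oxygen-induced retinopathy, in which high oxygen in early life closes retinal capillaries, and which asks about metabolism in a susceptible and a resistant strain. All livers were taken at postnatal day 12. Mice of the hyperoxia groups (4 libraries of C57 and 4 of BALBc) were kept in 75% oxygen from day 7, and mice of the normoxia groups (4 libraries of C57 and 3 of BALBc) were in room air throughout. The labels name no other treatment and no engineered allele. They give neither the substrain nor whether each replicate was its own animal. The p-values below therefore compare groups against the scatter of these libraries, part of which could be technical.

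RIG-I-like receptors are helicases that bind viral or misplaced RNA in the cytoplasm and, through a mitochondrial adapter, switch on interferon genes. Secreted interferon then acts on receptors of the same and neighbouring cells, and transcription factors, STAT2 and IRF9 among them, turn on a large set of antiviral genes through a promoter element called the ISRE. Interferon gamma acts through another element, the GAS. In liver, both hepatocytes and resident macrophages (Kupffer cells) express such genes, many of them at a low level without infection.

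The promoters of these genes are shown because the ISRE is an element through which interferon acts on genes. The members themselves were taken by symbol, not by this element. RefSeq promoters (build GRCm38.p6) were found for 29 of the 41 members. In the 250 bases before the start, a pair of GAAA half-sites with any 2 bases between them occurred on either strand in 16 of these 29 promoters (55.2%), against 3.46% of all 27025 genes in the promoter table. The letters TTCNNNGAA, as in a GAS and the same on both strands, occurred in 6 of 29 (20.7%) against 8.13% of all genes. Matches may overlap one another. The 60-base windows of 8 members follow, 5′ to 3′ on the gene's strand, with the letters of every ISRE match in capitals (GAAA half-sites, or TTTC half-sites where the match is on the opposite strand).
Bst2: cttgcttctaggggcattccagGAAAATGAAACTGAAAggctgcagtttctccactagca
Isg15: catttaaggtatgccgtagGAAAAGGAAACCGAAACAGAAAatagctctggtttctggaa
Stat2: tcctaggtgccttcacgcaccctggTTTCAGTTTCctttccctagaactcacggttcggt
Ifit1: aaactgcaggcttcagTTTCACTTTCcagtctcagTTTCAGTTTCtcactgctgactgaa
Ifit3: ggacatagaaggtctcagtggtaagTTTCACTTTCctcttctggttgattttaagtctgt
Ifit3b: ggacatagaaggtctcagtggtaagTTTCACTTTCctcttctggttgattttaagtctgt
Igtp: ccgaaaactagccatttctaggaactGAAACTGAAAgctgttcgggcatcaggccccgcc
Irgm2: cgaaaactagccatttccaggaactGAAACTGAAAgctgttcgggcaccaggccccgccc

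The windows lie at chr8:71537565-71537624 for Bst2, chr4:156200856-156200915 for Isg15, chr10:128270251-128270310 for Stat2 and chr19:34640769-34640828 for Ifit1. Those of Ifit3 and Ifit3b lie at chr19:34583348-34583407 and chr19:34607744-34607803, and those of Igtp and Irgm2 at chr11:58199496-58199555 and chr11:58214888-58214947. Isg15 carried 3 overlapping matches in its window. The Ifit3 and Ifit3b windows were identical, and the Igtp and Irgm2 promoters held a GAS match as well as the ISRE match. Promoters of Irf7, Ifih1, Ifit2, Oasl1, Trim25 and Ifi44, which are described below, held no such ISRE match, which says only that these letters are not in that stretch.

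In the livers as a whole, hepatocyte genes dominated: the 9 hepatocyte markers in the table, Alb among them, summed to between 80551 and 103937 FPKM in each library. From the spacing of low values, FPKM had been scaled to between 1.49e+07 and 1.91e+07 fragments in each library. Weakly expressed genes were not seen alike. Of the genes with 1 to 10 fragments, 29.7% to 33.5% had a single fragment in 7 libraries and 10.3% to 18.2% in the other 8. The 7 comprised every C57 hyperoxia library, the normoxia libraries C57 4 and BALBc 1, and BALBc hyperoxia 1, so in C57 this difference runs largely with oxygen. Within hyperoxia it runs largely with strain, with 4 C57 libraries but 1 BALBc library among the 7. Strain differences of weakly expressed genes in hyperoxia therefore carry this limit. Below, the 7 libraries are called the libraries with many single-fragment genes.

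Among the RNA sensors, Dhx58 and Ifih1 were lowest in C57 room-air livers, whereas Ddx58 was near the same level in all 4 groups. Dhx58 (LGP2, a RIG-I-like helicase without the signalling domain; chromosome 11, 100694884 to 100704271, GRCm38) stood at 0.684, 0.699, 1.48 and 1.16 FPKM in C57 normoxia and 1.73, 2.39, 1.56 and 3.26 FPKM in C57 hyperoxia. In BALBc it stood at 3.003, 3.17 and 3.499 FPKM in normoxia and 2.44, 1.58, 1.64 and 2.36 FPKM in hyperoxia. All 4 C57 hyperoxia libraries were above all C57 normoxia libraries, and all 4 BALBc hyperoxia libraries were below all BALBc normoxia libraries. The levels rested on 36 to 188 fragments per library.

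On the log2(FPKM + 1) scale, the Dhx58 difference between hyperoxia and normoxia was 0.68 ± 0.17 (SE) in C57, with an adjusted p of 0.0852, and -0.50 ± 0.18 in BALBc, with an adjusted p of 0.251 (limma, Benjamini-Hochberg over all genes tested). The difference between these responses, BALBc minus C57, was -1.18 ± 0.25 (adjusted p = 0.0427). Of the 39 members tested, Dhx58 was the 1 that passed for this interaction, against 0.821% of all genes tested (0.445% in the same direction). This call was lost in 11 of the 15 fits that left out 1 library, with adjusted p-values of 0.0515 to 0.118, namely without any BALBc normoxia library, without BALBc hyperoxia 2, 3 or 4, without C57 normoxia 1 or 2, or without C57 hyperoxia 1, 2 or 4. It was also lost with library class as a term (-1.08, adjusted p = 0.135). In room air, Dhx58 was higher in BALBc than in C57 by 1.09 ± 0.18 (adjusted p = 4.26e-04), and in hyperoxia the strain difference was -0.09 ± 0.17 (adjusted p = 0.767). Dhx58os, a transcript on the opposite strand that overlaps 141 exon bases of Dhx58, stayed between 0 and 0.156 FPKM. The sources used here do not say whether the libraries kept strand, so reads of the overlap cannot be told apart.

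Ifih1 (MDA5, the sensor of long double-stranded RNA; chromosome 2, 62595798 to 62646255) followed a like order. It stood at 2.85, 2.08, 2.55 and 2.94 FPKM in C57 normoxia and 4.09, 3.77, 3.39 and 4.18 FPKM in C57 hyperoxia, so the C57 groups did not overlap. BALBc livers had 5.29, 3.79 and 4.76 FPKM in normoxia and 4.84, 3.79, 3.87 and 4.28 FPKM in hyperoxia, where the groups did overlap. The C57 difference was 0.43 ± 0.11 with an adjusted p of 0.0786. Between strains in room air, Ifih1 was higher in BALBc by 0.64 ± 0.12 (adjusted p = 7.58e-04), and in hyperoxia the difference was 0.10 ± 0.11 (adjusted p = 0.579). The interaction of -0.54 ± 0.16 did not pass (adjusted p = 0.139).

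Ddx58, which encodes RIG-I itself, averaged 4.55 ± 0.727 FPKM (mean ± SD, n = 4) in C57 normoxia and 4.75 ± 0.362 FPKM (n = 4) in C57 hyperoxia. In BALBc the means were 4.57 ± 0.622 FPKM (n = 3) and 4.66 ± 0.582 FPKM (n = 4). All of its 5 differences lay between -0.03 and 0.06 on the log2 scale, within their SE, and none passed.

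**Figure D1:**
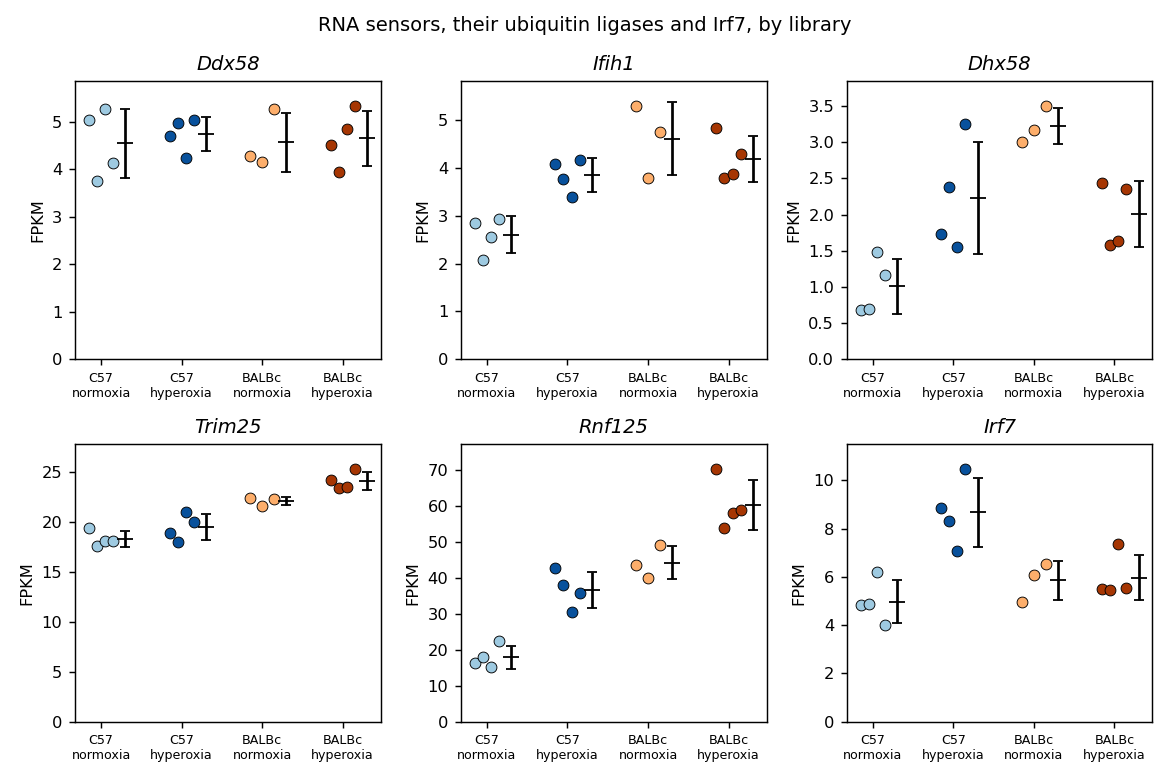
FPKM (vertical axes, starting at 0) of the 3 RNA sensors, 2 ubiquitin ligases and Irf7, by group (horizontal axes). Points are libraries, and the bars beside them give the mean and SD. Rnf125 climbs from C57 normoxia (15.1 to 22.5) to BALBc hyperoxia (53.9 to 70.3), Dhx58 and Ifih1 are lowest in C57 normoxia, and Ddx58 overlaps between all groups.

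The ligases that put ubiquitin on RIG-I were both higher in BALBc. Rnf125 (ENSMUSG00000033107), known from human cells to mark RIG-I and MDA5 for degradation, also rose with oxygen in C57. It stood at 16.3, 17.9, 15.1 and 22.5 FPKM in C57 normoxia and 42.7, 37.9, 30.6 and 35.7 FPKM in C57 hyperoxia. The BALBc levels were 43.7, 40.1 and 49.1 FPKM in normoxia and 70.3, 53.9, 58.1 and 58.9 FPKM in hyperoxia. Groups did not overlap in either oxygen comparison or in either strain comparison, whereas C57 hyperoxia and BALBc normoxia lay next to each other, with BALBc normoxia 2 (40.1 FPKM) below C57 hyperoxia 1 (42.7 FPKM).

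Rnf125 rose in C57 by 0.9996 ± 0.13 on the log2 scale (adjusted p = 0.00225), a ratio of mean FPKM of 2.05. It was 1 of 2 members called higher in C57 (5.13% of 39, none lower), where 0.937% of all genes were called in either direction 0.223% higher and 0.714% lower. In BALBc its difference of 0.43 ± 0.14 did not pass (adjusted p = 0.170), and neither did the interaction of -0.56 ± 0.19 (adjusted p = 0.188). BALBc exceeded C57 by 1.27 ± 0.14 in room air (adjusted p = 7.36e-06) and by 0.70 ± 0.13 in hyperoxia (adjusted p = 9.39e-04). All 3 calls held in each of the 15 fits without 1 library. Among the 7 libraries with many single-fragment genes, the sole C57 normoxia library had 22.5 FPKM against 30.6 to 42.7 in C57 hyperoxia, and the C57 difference there was 0.67 with an adjusted p of 0.187. With library class as a term it was 0.81 (adjusted p = 0.0365). Of its 50-base words, 13% are shared with other genes, most often with Gm2996, which was listed between 0 and 0.361 FPKM.

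Trim25 (chromosome 11, 88999376 to 89020293), a ligase that activates RIG-I with ubiquitin chains, differed by strain with little spread. It stood at 19.4, 17.6, 18.1 and 18.1 FPKM in C57 normoxia and 18.9, 18.0, 21.01 and 20.05 FPKM in C57 hyperoxia. Levels in BALBc were 22.5, 21.6 and 22.3 FPKM in normoxia and 24.2, 23.4, 23.6 and 25.3 FPKM in hyperoxia. Every BALBc library was above every C57 library. The strain difference was 0.26 ± 0.07 in room air (adjusted p = 0.00809) and 0.30 ± 0.06 in hyperoxia (adjusted p = 0.00268). Both calls held in each of the 15 fits without 1 library. Among the 8 libraries with few single-fragment genes alone, the room-air difference was 0.24 and did not pass (adjusted p = 0.102). In C57 the oxygen difference was 0.08 ± 0.06 (adjusted p = 0.568), and in BALBc it was 0.12 ± 0.07 (adjusted p = 0.504).

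Of the transcription factors, Irf7 was the member that rose with oxygen in C57. IRF7 drives the interferon alpha genes and is itself induced by interferon. Irf7 (ENSMUSG00000025498; chromosome 7, 141262706 to 141266481) stood at 4.84, 4.88, 6.20 and 4.01 FPKM in C57 normoxia and 8.85, 8.30, 7.07 and 10.47 FPKM in C57 hyperoxia. In BALBc it stood at 4.95, 6.07 and 6.54 FPKM in normoxia and 5.52, 5.45, 7.37 and 5.54 FPKM in hyperoxia. The C57 groups did not overlap, and the BALBc groups overlapped at the level of C57 normoxia. The levels rested on 231 to 638 fragments per library. Phrf1, which overlaps 45 exon bases of Irf7 on the opposite strand, stood between 2.395 and 4.53 FPKM.

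The rise of Irf7 in C57 was 0.69 ± 0.13 (adjusted p = 0.0284), a ratio of mean FPKM of 1.74. In BALBc the difference was 0.02 ± 0.14 (adjusted p = 0.976), and the interaction of -0.67 ± 0.20 did not pass (adjusted p = 0.138). In hyperoxia Irf7 was lower in BALBc than in C57 by -0.47 ± 0.13 (adjusted p = 0.0183). The C57 call was lost without C57 normoxia 2 (adjusted p = 0.0612) and without C57 hyperoxia 1 (0.0862), 2 (0.0622) or 4 (0.0899), and the strain call without C57 hyperoxia 4 (0.0646), BALBc hyperoxia 2 (0.0512) or BALBc hyperoxia 4 (0.0505). With library class as a term the C57 rise was 0.88 (adjusted p = 0.0365). The only C57 normoxia library with many single-fragment genes had 4.01 FPKM, below the other 3, and among the 7 such libraries the difference was 0.94 (adjusted p = 0.142).

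Stat2 and Irf9 encode factors that act together at the ISRE. Stat2 stood at 17.6, 15.8, 20.4 and 14.4 FPKM in C57 normoxia and 14.4, 14.4, 16.6 and 17.8 FPKM in C57 hyperoxia. BALBc livers had 19.4, 22.9 and 22.7 FPKM in normoxia and 18.1, 18.3, 18.5 and 18.7 FPKM in hyperoxia. In room air it was higher in BALBc by 0.34 ± 0.11 (adjusted p = 0.0281), though BALBc normoxia 1 lay below C57 normoxia 3. That call was lost without C57 normoxia 2 or 4 or BALBc normoxia 2 or 3, with adjusted p-values of 0.0614 to 0.104. Irf9 ranged from 2.71 to 7.26 FPKM over all libraries and passed in no comparison.

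The IFIT genes, whose proteins bind foreign RNA, were higher in C57 hyperoxia than in C57 normoxia by 0.38 to 0.72, with non-overlapping groups for 3 of the 4 (as for 3.51% of all genes), but none passed the test. Ifit2 stood at 1.68, 0.724, 1.09 and 1.75 FPKM in C57 normoxia and 2.43, 2.76, 2.54 and 3.31 FPKM in C57 hyperoxia. The BALBc levels were 2.16, 3.12 and 2.08 FPKM in normoxia and 2.82, 1.86, 2.93 and 3.27 FPKM in hyperoxia. The C57 room-air libraries were thus below all others. The Ifit2 difference in C57 was 0.72 ± 0.16 (adjusted p = 0.0561), and it passed without C57 normoxia 1 (adjusted p = 0.0498), C57 normoxia 4 (0.0371) or BALBc hyperoxia 2 (0.0432), which enters through the shared estimate of spread. Between strains in room air Ifit2 was higher in BALBc by 0.59 ± 0.18 (adjusted p = 0.0210). This was lost without C57 normoxia 2 (0.0521) or BALBc normoxia 2 (0.108).

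Ifit1 was higher in C57 hyperoxia by 0.48 ± 0.14 (adjusted p = 0.146), with 1.06 to 1.70 FPKM in C57 normoxia and 1.89 to 2.99 FPKM in C57 hyperoxia. Ifit3 and Ifit3b, whose promoter windows are identical, share 51.2% and 44.5% of their 50-base words with each other, so the division of reads between them is uncertain. Their C57 differences were 0.56 ± 0.31 (adjusted p = 0.439) and 0.38 ± 0.14 (adjusted p = 0.229).

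The OAS genes, a family named for enzymes that make the oligoadenylates that activate RNase L, stood lower in BALBc than in C57 after hyperoxia. Not every member of the family need have that activity. In all 5 tested genes (Oas1a, Oas1g, Oas2, Oasl1, Oasl2) each BALBc hyperoxia library was below each C57 hyperoxia library, a pattern that 15.6% of all genes tested showed. Of these, Oasl1 was called. Oasl1, which in mice is known to hold back translation of Irf7 mRNA, stood at 1.81, 2.31, 1.39 and 2.47 FPKM in C57 hyperoxia and 0.641, 0.741, 0.762 and 0.857 FPKM in BALBc hyperoxia. In normoxia it stood at 1.55, 1.11, 0.618 and 1.53 FPKM in C57 and 0.601, 1.09 and 1.64 FPKM in BALBc, and those groups overlapped. Gm13822, which overlaps 38 exon bases of Oasl1 on the opposite strand, was listed between 0 and 0.717 FPKM in C57 hyperoxia and at 0 in BALBc hyperoxia. In normoxia it reached 0.189 FPKM in C57 and 2.06 FPKM in BALBc, above the highest Oasl1 level of that group (1.64 FPKM).

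The Oasl1 strain difference in hyperoxia was -0.76 ± 0.18 (adjusted p = 0.00633), and it passed in each of the 15 fits without 1 library. With library class, which also differs between these groups, as a term it was -0.84 (adjusted p = 0.0220). Among the 7 libraries with many single-fragment genes, of which 1 is BALBc hyperoxia, it was -0.85. With 1 library in that group, this value cannot show whether the call holds. The levels rested on 54 to 104 fragments in C57 hyperoxia and 30 to 35 in BALBc hyperoxia. In room air the Oasl1 strain difference was -0.07 ± 0.19 (adjusted p = 0.828). The other 4 tested OAS genes differed in hyperoxia by -0.21 to -0.55, with adjusted p-values of 0.0550 for Oas1a, 0.0650 for Oas2, 0.117 for Oasl2 and 0.261 for Oas1g. These are weakly expressed genes, with group means of at most 3.11 FPKM, and Oas1a and Oas1g share 57.6% and 45.2% of their 50-base words with each other. Oas3 stood at 0.332 to 0.859 FPKM in C57 hyperoxia and 0.256 to 0.488 FPKM in BALBc hyperoxia, and overlapped.

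Among the other antiviral effectors, Bst2 was the most abundant, and the 1 called. Bst2 encodes tetherin, which holds budding virus at the cell surface, and its promoter window carries overlapping ISRE matches. It stood at 96.7, 87.2, 109 and 82.4 FPKM in C57 normoxia and 79.4, 80.6, 93.3 and 99.7 FPKM in C57 hyperoxia. Levels in BALBc were 125, 128 and 133 FPKM in normoxia and 93.2, 105, 105 and 119 FPKM in hyperoxia, so the BALBc groups did not overlap. In room air Bst2 was higher in BALBc by 0.46 ± 0.11 (adjusted p = 0.00511). The lower level in BALBc hyperoxia, -0.28 ± 0.11, did not pass (adjusted p = 0.274), and the strain difference in hyperoxia was 0.26 ± 0.10 (adjusted p = 0.0754). It passed there without C57 hyperoxia 4 (0.0444) or BALBc hyperoxia 1 (0.0430).

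Mx2, Rsad2, Cmpk2, Zbp1, Rtp4 and Xaf1 passed in none of the 5 comparisons. Zbp1, a sensor of Z-form nucleic acids that can start cell death, had the largest oxygen difference of the members in BALBc, 0.64 ± 0.28 (adjusted p = 0.352), from 5.66 to 8.84 FPKM in normoxia to 8.85 to 13.2 FPKM in hyperoxia. Rsad2 (viperin) and Cmpk2, neighbouring genes of an antiviral nucleotide pathway, averaged 1.73 to 2.15 and 1.49 to 2.37 FPKM over the groups. Isg15, the ubiquitin-like modifier whose promoter window holds 3 ISRE matches, averaged 11.3 to 13.1 FPKM in the 4 groups with SDs of up to 5.05, and Usp18, the protease that removes ISG15, 5.70 to 8.11 FPKM. Neither passed.

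Of the IFI genes, Ifi27 and Ifi44 were higher in BALBc. Ifi27, a small protein of mitochondrial and nuclear membranes, stood at 15.7, 5.90, 12.6 and 10.2 FPKM in C57 normoxia and 23.9, 19.5 and 21.5 FPKM in BALBc normoxia. After hyperoxia it stood at 10.4, 12.4, 12.9 and 14.5 FPKM in C57 and 15.01, 15.6, 20.4 and 24.9 FPKM in BALBc. The strains did not overlap in either condition. The difference was 0.97 ± 0.24 in room air (adjusted p = 0.00671) and 0.54 ± 0.22 in hyperoxia (adjusted p = 0.0981), where it passed without C57 normoxia 2 (0.0238).

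Ifi44 was near the limit of detection in C57. Its 5 libraries at 1 FPKM or more were all BALBc, so it was tested only because of the strain where it is high. It stood at 0.0811, 0.111, 0.587 and 0.320 FPKM in C57 normoxia and 0.533, 0.378, 0.372 and 0.819 FPKM in C57 hyperoxia, on 8 to 81 fragments. In BALBc it stood at 0.921, 1.503 and 1.85 FPKM in normoxia and 1.56, 0.570, 1.57 and 1.76 FPKM in hyperoxia. BALBc was higher by 0.93 ± 0.22 in room air (adjusted p = 0.00483), without overlap, and by 0.61 ± 0.20 in hyperoxia (adjusted p = 0.0403), where BALBc hyperoxia 2 lay among the C57 libraries. The latter call was lost without C57 hyperoxia 1, 2 or 3, BALBc normoxia 2 or BALBc hyperoxia 1, 3 or 4, with adjusted p-values of 0.0501 to 0.115. Ifi35 and Ifi27l2a, at 7.89 to 12.9 and 9.56 to 16.7 FPKM, passed in no comparison.

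PARP9 and DTX3L form a complex that modifies histones and ubiquitin after interferon. Parp9 stood at 9.51, 7.83, 8.99 and 7.12 FPKM in C57 normoxia and 11.8, 10.1 and 11.4 FPKM in BALBc normoxia. After hyperoxia it stood at 8.78, 8.47, 8.39 and 9.81 FPKM in C57 and 9.66, 8.94, 7.84 and 10.2 FPKM in BALBc, where the strains overlapped. The room-air strain difference was 0.38 ± 0.10 (adjusted p = 0.0130) and was lost without BALBc normoxia 1 (0.0527). Dtx3l, which overlaps 458 exon bases of Parp9 on the opposite strand, differed by 0.09 ± 0.11 (adjusted p = 0.614). Parp14 did not pass either.

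**Figure D2:**
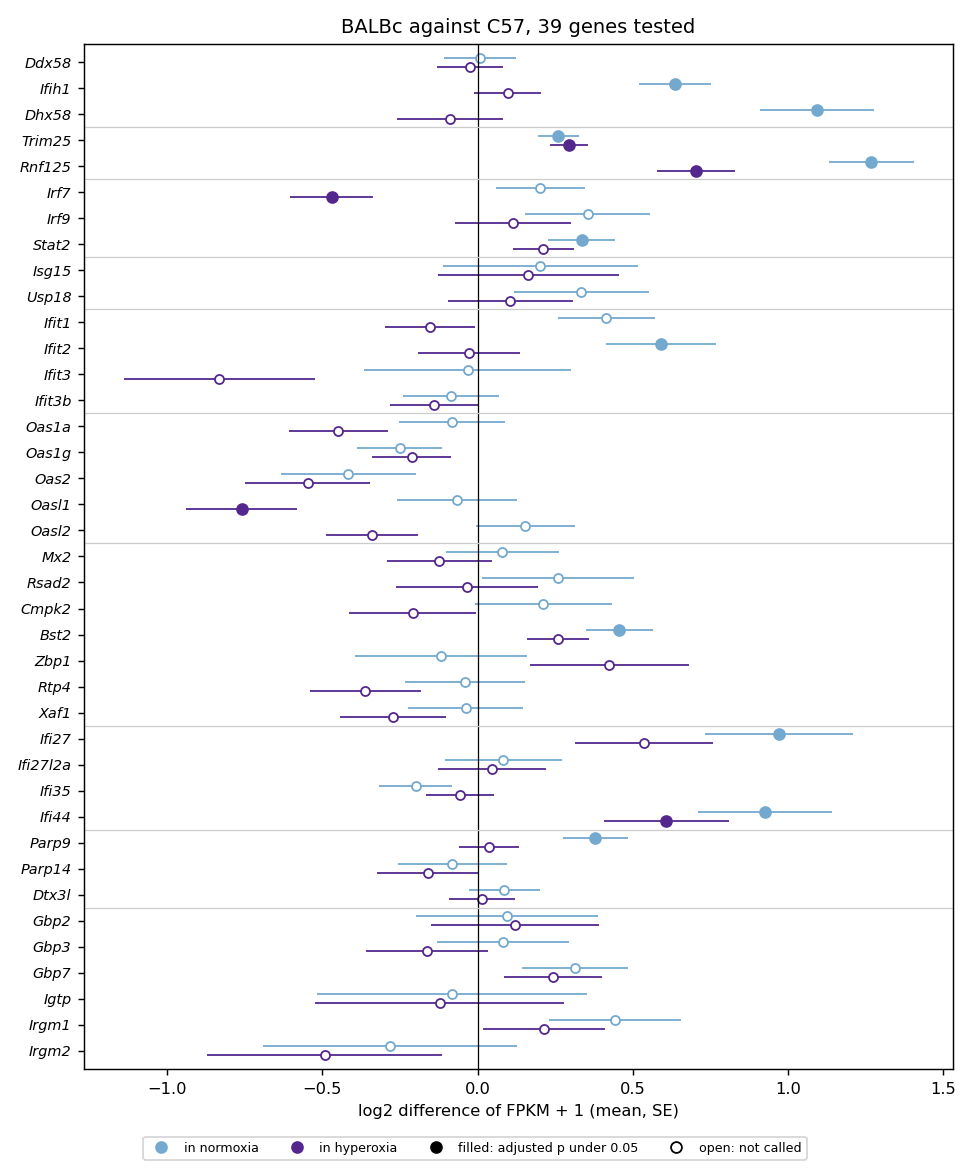
BALBc minus C57 difference on the log2(FPKM + 1) scale (horizontal axis, mean and SE) for the 39 tested genes (vertical axis, grouped by role with grey lines). Light blue is normoxia, purple is hyperoxia, and filled points passed an adjusted p of 0.05. All 10 filled normoxia points lie above 0, whereas Oasl1 and Irf7 are filled below 0 in hyperoxia.

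Across the members, then, 10 of 39 (25.6%) were called higher in BALBc than in C57 in room air and 0 lower, where 30% of all genes were called, 15.4% higher and 14.6% lower. The total was near the background. Ifi44, counted as higher here and in hyperoxia, passed the filter through BALBc libraries alone. No member was lower at an unadjusted p under 0.05 either, and 11 were higher, while 13 of 39 members had differences below 0, down to -0.42 for Oas2 (adjusted p = 0.169). Genes as a whole were not counted at this unadjusted threshold, here or below, so counts at it have no background beside them. Groups did not overlap for 9 members, all higher in BALBc, against 15.7% of all genes above and 14.2% below. In hyperoxia 3 were called higher (Rnf125, Trim25, Ifi44) and 2 lower (Oasl1, Irf7), 12.8% of 39, where 23.2% of all genes were called, 11.9% higher and 11.3% lower. Without C57 normoxia 2, 5 were called lower, without C57 normoxia 3, 4 were, and without any of C57 hyperoxia 4, BALBc hyperoxia 2 and BALBc hyperoxia 4, 1 was. The normoxia libraries enter that comparison through the shared estimate of spread. Median differences over the 39 members were 0.15 in room air and -0.03 in hyperoxia, against 0.01 and -0.002 over all genes.

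For oxygen in C57, 32 of 39 members (82.1%) had differences above 0, with a median of 0.23, against 50.6% and 0.00 over all genes. Among the members, 8 had C57 hyperoxia libraries all above the C57 normoxia libraries and 0 the reverse, where 3.51% of all genes showed the first pattern and 4.38% the second. These were Rnf125, Irf7, Ifit2, Ifih1, Dhx58, Oasl2, Ifit1 and Ifit3b. Leaving out C57 normoxia 2 or any of the C57 hyperoxia libraries 1, 2 and 4 gave 1 member called higher, and leaving out BALBc hyperoxia 2 gave 4. At an unadjusted p under 0.05, 10 were higher and 0 lower, without a count of all genes to set beside this. The median ranged from 0.09 without C57 normoxia 2 to 0.36 over the fits without 1 library, so C57 normoxia 2, the lowest C57 normoxia library for 17 of 39 members, moved it most.

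For oxygen in BALBc, no member was called in limma, where 0.944% of all genes were (0.407% higher and 0.537% lower). At an unadjusted p under 0.05, again without a count of all genes, there were 5: Rnf125 and Zbp1 higher, and Dhx58, Bst2 and Parp9 lower. The median was -0.05, and 18 members lay above 0 and 21 below. Groups did not overlap for 3 members above (6.43% of all genes) and 3 below (7.15%). For the interaction, 34 of 39 members had a value below 0. That is a lower oxygen response in BALBc than in C57, not a lower level. The median of the 39 members was -0.23, against -0.01 over all genes. The C57 normoxia libraries enter the C57 oxygen comparison, the room-air strain comparison and the interaction alike, so these counts are not independent of one another.

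**Figure D3:**
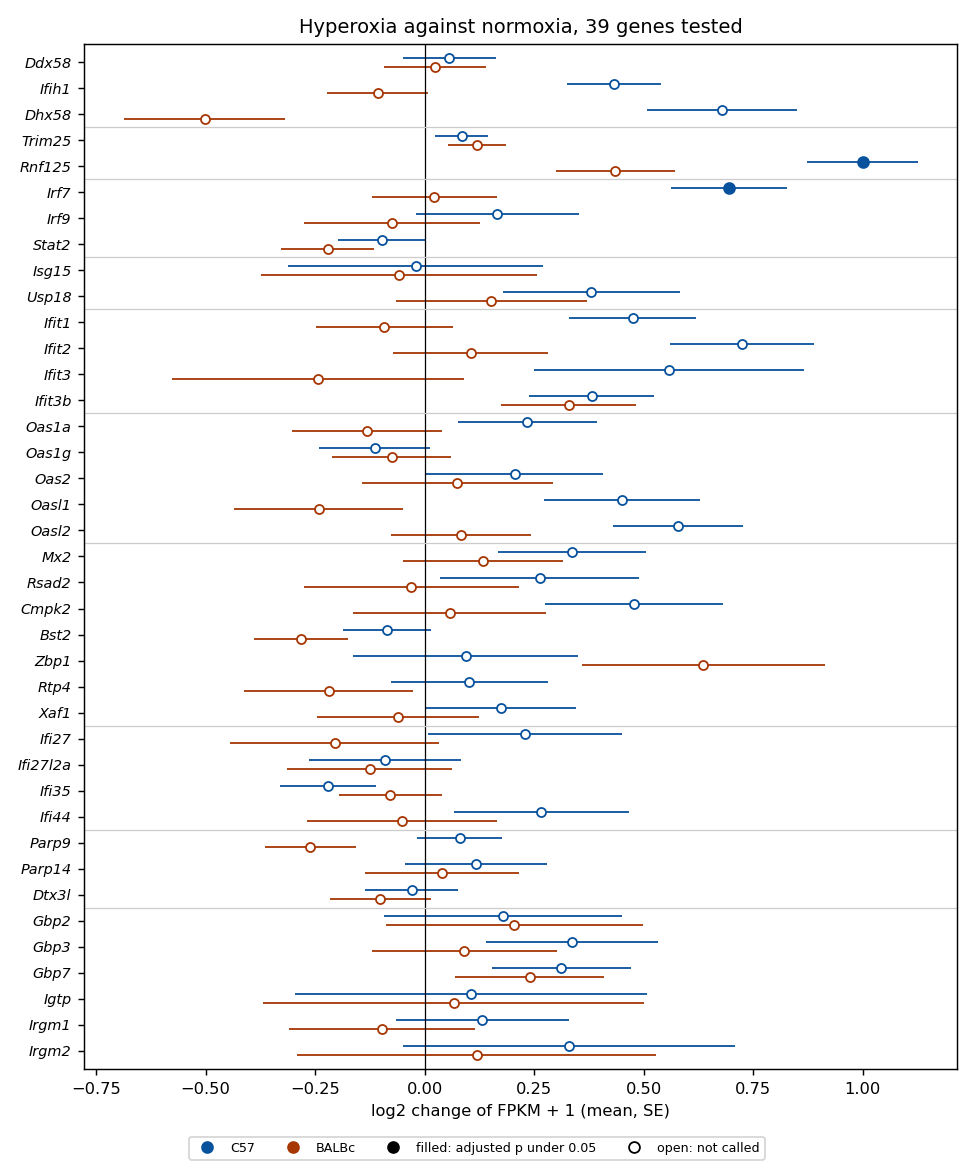
Hyperoxia minus normoxia on the log2(FPKM + 1) scale (horizontal axis, mean and SE) for the 39 tested genes (vertical axis, by role), in C57 (blue) and BALBc (orange). Filled points passed an adjusted p of 0.05. Rnf125 and Irf7 are filled in C57 and none in BALBc, and Dhx58 lies at 0.68 in C57 and -0.50 in BALBc.

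The interferon-inducible GTPases, which act on the membranes around intracellular microbes and are classic targets of interferon gamma, varied more between libraries than between groups. Igtp (Irgm3; chromosome 11, 58199556 to 58207591) stood at 80.6, 18.2, 25.1 and 16.1 FPKM in C57 normoxia and 24.1, 22.05, 27.0 and 56.8 FPKM in C57 hyperoxia. BALBc livers had 30.5, 25.5 and 23.4 FPKM in normoxia and 23.25, 25.4, 26.2 and 37.35 FPKM in hyperoxia. Irgm2, its neighbour with a like promoter window, stood at 55.3, 10.04, 16.3 and 16.98 FPKM in C57 normoxia and 21.1, 20.01, 21.4 and 45.5 FPKM in C57 hyperoxia. Library 1 of C57 normoxia and library 4 of C57 hyperoxia thus stood apart within their groups in both genes. The pair overlaps in 162 exon bases on the same strand and Igtp shares 11.8% of its 50-base words, mostly with Irgm2. Whether reads of these stretches were counted, and for which gene, is not known here.

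The remaining GTPases peaked in the same libraries. Irgm1, which lies elsewhere on chromosome 11, reached 14.6 FPKM in C57 normoxia 1 against 5.83 to 9.22 in the other 3, and Gbp2, a guanylate-binding protein gene on chromosome 3, reached 10.8 FPKM against 2.83 to 4.53. In each of the 4 groups, 1 library was the highest for all 6 GTPases (Igtp, Irgm1, Irgm2, Gbp2, Gbp3, Gbp7): library 1 of each normoxia group and library 4 of each hyperoxia group. None of the 6 passed in any comparison, and the SE of the C57 oxygen difference was 0.40 for Igtp and 0.38 for Irgm2 against 0.13 for Rnf125.

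**Figure D4:**
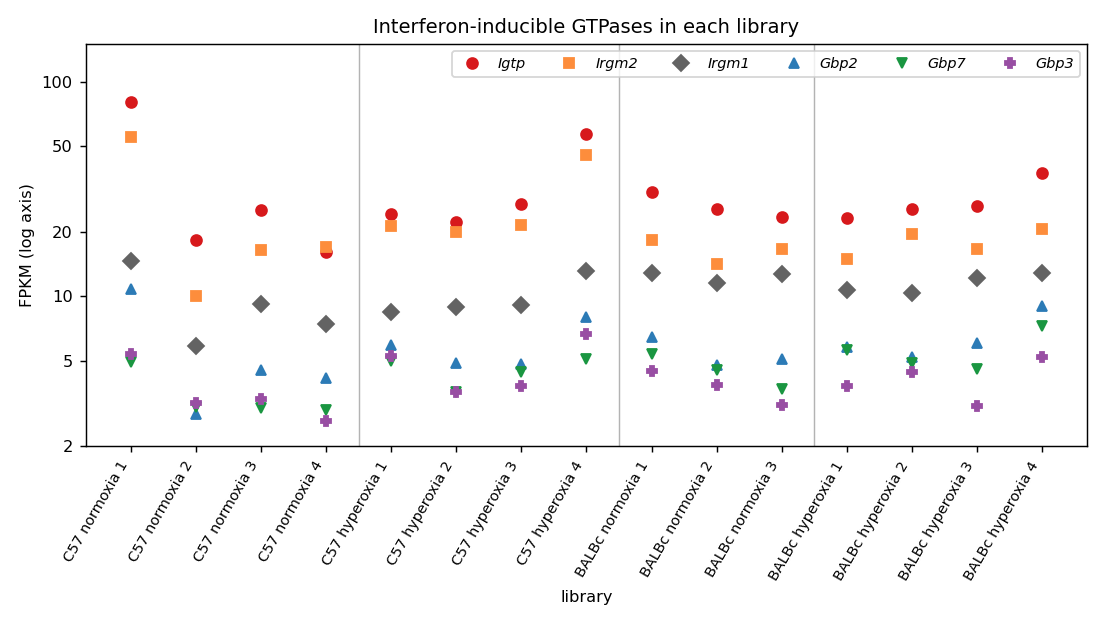
FPKM on a log axis (vertical) of 6 interferon-inducible GTPase genes in each of the 15 libraries (horizontal axis, groups divided by grey lines). C57 normoxia 1 and C57 hyperoxia 4 stand out, with Igtp at 80.6 and 56.8 FPKM, whereas the other 6 of C57 lie between 16.1 and 27.0.

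The same libraries were high for many other members. C57 hyperoxia 4 was the highest of its group for 32 of 39 members (82.1%), where it was so for 26.1% of all genes tested, and BALBc hyperoxia 4 for 24 members (61.5%, against 22.6%). C57 normoxia 1 was the highest for 19 (48.7%, against 23.8%). BALBc hyperoxia 2 was the lowest of its group for 22 members (56.4%, against 25.8%). Among the 99 other interferon-stimulated genes tested, C57 normoxia 1 was the highest of its group for 48 (48.5%), C57 hyperoxia 4 for 57 (57.6%) and BALBc hyperoxia 4 for 40 (40.4%). Without both C57 normoxia 1 and C57 hyperoxia 4, the median C57 oxygen difference of the members was 0.29, and Rnf125 alone was called.

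Markers of Kupffer cells were high in some of these libraries and low in another. Their summed level over 20 genes was highest in C57 normoxia 1 (1377 FPKM, with 922 to 1061 in the remaining 3 of that group), lowest of its group in C57 hyperoxia 4 (649 FPKM, group range 649 to 778) and highest of its group in BALBc hyperoxia 4 (446 FPKM, group range 354 to 446). Lymphocyte markers, 17 genes, summed to 24.3 FPKM in C57 normoxia 1 and 21.7 in C57 hyperoxia 4, the lowest of the C57 normoxia libraries and the second lowest of the C57 hyperoxia libraries, but to 15.3 in BALBc hyperoxia 4, the highest of its group. Erythroid markers, 13 genes, summed to 2923 FPKM in C57 hyperoxia 4 (1264 to 1892 in the other 3 of its group) and 1966 in BALBc hyperoxia 4 (group range 1469 to 1966), the highest of each group. In C57 normoxia they were highest in library 4 (3380 FPKM) and at 1963 in library 1. Ifng, the interferon gamma gene, was seen with at most 3 fragments in any library. What sets these libraries apart was not tested.

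**Figure D5:**
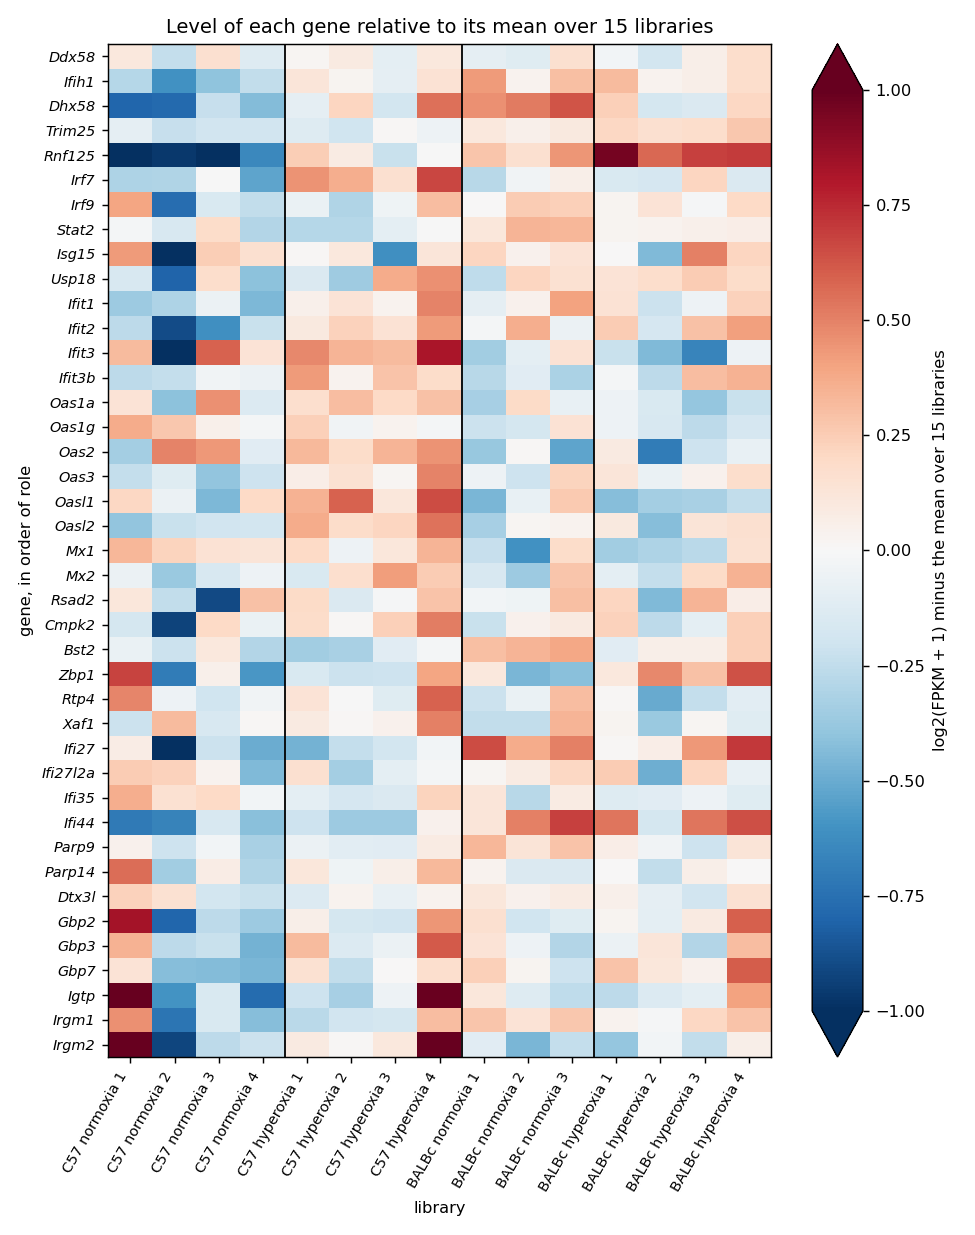
Level of each of the 41 genes (vertical axis, ordered by role) in each library (horizontal axis), as log2(FPKM + 1) minus the gene's mean over the 15 libraries. Red is above and blue below that mean, and colours end at -1 and 1. C57 hyperoxia 4 is red for most genes, and the GTPases at the bottom are deepest red in C57 normoxia 1 and C57 hyperoxia 4.

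Upstream of the members, interferon ligand genes were seen with few fragments or none, and the 5 tested receptor genes were lower in BALBc in room air. Of 18 ligand and receptor genes, 10 were at 0 fragments in every library, Ifnb1 and Ifne among them, and Ifnk had at most 13. All 5 receptor genes tested were called lower in BALBc in room air, where 14.6% of all genes were. In hyperoxia Ifngr1 alone was called lower (-0.33, adjusted p = 0.0220), where 11.3% of all genes were. The other differences there ranged from -0.26 for Ifnar2 to 0.07 for Ifnar1. Ifnlr1, too low to be tested, averaged 0.344 FPKM in BALBc and 0.199 in C57 in room air, and 0.665 and 0.178 in hyperoxia. Il10rb, a chain of the interferon lambda and interleukin receptors, averaged 3.94 ± 0.26 FPKM (n = 4) in C57 normoxia, 2.55 ± 0.243 (n = 4) in C57 hyperoxia, 1.59 ± 0.547 (n = 3) in BALBc normoxia and 2.40 ± 0.213 (n = 4) in BALBc hyperoxia. Its room-air strain difference was -0.95 ± 0.12 (adjusted p = 3.54e-05), and its responses differed between strains by 0.89 ± 0.17 (adjusted p = 0.0248). Ifnar2, Ifngr2 and Ifngr1, chains of the type I and interferon gamma receptors, were lower in BALBc in room air by -0.49, -0.40 and -0.45 (adjusted p = 0.00156, 0.00327 and 0.00478).

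Among 17 tested JAK-STAT and IRF genes, 1 was higher and 4 lower in BALBc in room air, and 2 and 2 in hyperoxia. Of all genes tested, 15.4% were higher and 14.6% lower in room air, and 11.9% and 11.3% in hyperoxia. Irf5 and Irf8, factors of macrophages and dendritic cells, were lower in both (Irf5 by -0.92 and -0.74, adjusted p = 4.72e-04 and 0.00175). Of 27 adapters and regulators of RNA and DNA sensing, some of them outside the RIG-I pathway, 5 were higher and 3 lower in BALBc in room air. In hyperoxia 3 were higher: Tbk1, the kinase that activates IRF3 and IRF7, by 0.38 ± 0.07 (adjusted p = 0.00168), Riok3 by 0.33 ± 0.06 and Rnf135, a ligase that activates RIG-I, by 0.51 ± 0.11. No gene of either list was called for oxygen in either strain by limma, where 0.937% of all genes were in C57 and 0.944% in BALBc. At an unadjusted p under 0.05, 2 JAK-STAT and IRF genes were higher in each strain, and of the adapters 5 were lower in C57 and 1 higher and 1 lower in BALBc. Without a count of all genes at this threshold, whether these counts are unusual cannot be told.

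Interferon-stimulated genes outside the 41 were counted from a wider list. Of 99 tested, 20 were higher and 28 lower in BALBc in room air (48.5% called, against 30% of all genes), and 14 and 24 in hyperoxia (38.4%, against 23.2% of all genes). Gbp2b averaged 4.32 ± 1.13 FPKM (n = 3) in BALBc normoxia, with at most 1 fragment in C57 normoxia, and Ifi44l averaged 1.90 ± 0.235 FPKM (n = 3) there and was listed at 0 in all 8 C57 libraries. Epsti1 was lower in BALBc by -1.21 in room air and -1.18 in hyperoxia. For oxygen, Ifi30 and Bcl3 fell in C57 by -0.58 and -0.55 (adjusted p = 0.0300 and 0.0377), and none of the 99 was called in BALBc. There 2 were higher and 3 lower at an unadjusted p under 0.05, without a count of all genes to set beside this. The reads were aligned to GRCm38, a C57BL/6J genome, and what strain variants do to the FPKM of each gene was not tested.

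Most Kupffer cell markers were lower in BALBc. Of 20 tested, 1 was higher and 16 lower in BALBc in room air, 1 higher and 14 lower in hyperoxia, and 1 higher and 3 lower with oxygen in C57. Of all genes, 15.4% were higher and 14.6% lower in the first comparison, 11.9% and 11.3% in the second, and 0.223% and 0.714% in the third. The summed level of the 20 markers was 922 to 1377 FPKM in C57 normoxia, 649 to 778 in C57 hyperoxia, 385 to 434 in BALBc normoxia and 354 to 446 in BALBc hyperoxia, and no marker was at 0 in every library. In C57 the lower sum with oxygen lay mostly in Marco, a scavenger receptor (mean 226.5 to 49.8 FPKM), and Lyz2, a lysozyme (138 to 57.5 FPKM), which fell, whereas Clec4f, a Kupffer cell lectin, rose (60.03 to 81.8 FPKM). Lymphocyte markers summed to 24.3 to 27.0 FPKM in C57 normoxia, 21.4 to 30.8 in C57 hyperoxia, 8.11 to 12.0 in BALBc normoxia and 9.85 to 15.3 in BALBc hyperoxia. Plasmacytoid dendritic cell markers, 12 genes, summed to 12.2 to 23.4 FPKM in C57 and 7.997 to 11.1 in BALBc. The part of these cells in the results was not tested, and in bulk tissue fewer cells of a type and less RNA per cell cannot be told apart.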

How the data were processed

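Liver RNA of 15 mouse libraries was extracted with TRIzol and sequenced as NEBNext Ultra II libraries, per the labels' protocols. The authors deposited FPKM per gene, and per the submitters' processing notes the tools were HISAT2 2.0.5 and featureCounts 1.5.0-p3 on GRCm38. Neither strandedness nor annotation is stated in the sources used here. Of the identifiers, 54495 matched GENCODE M21 and 37 did not. FPKM times exon length gave fragments per gene: below 30 fragments, 98.1% to 98.7% of a library's values came out whole (tolerance 0.05), and libraries were classed at 25% of the genes at 1 to 10 fragments sitting at 1.

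Genes at 1 FPKM or more in at least 3 libraries were tested on log2(FPKM + 1), a pseudocount of 1 that understates changes of low genes, with limma 3.58.1 in R 4.3.3 (1 mean per group, all 15 libraries in 1 fit, variance trend). P-values were adjusted by Benjamini-Hochberg over all genes tested within each of 5 comparisons, and an adjusted p under 0.05 was called. Count tests were not run on FPKM. The method was tested on simulated data.

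The members, lists and naming rule were chosen with earlier results of these data known, so no list test was run. Values in every library are given for members called in any comparison and for the 3 members with the smallest p per comparison. The GTPases and other members are given in more detail by their place in the libraries, chosen after their values were seen. From other lists, up to 4 called genes with the smallest p per comparison could be named. Replicate numbers are shared between groups, but deviations of same-numbered libraries correlated above 0.1 in 1 of 21 pairs (range -0.05 to 0.21), so samples were treated as unpaired. No 2 libraries held identical values. Alternatives were testing without a filter or with one at 5 FPKM, a pseudocount of 0.1, median and quantile scaling, no variance trend, a replicate block, library class as a term and leaving out each library. Using 1 class of libraries alone, and leaving out C57 normoxia 1 with C57 hyperoxia 4, were added after seeing the data. Tables and plots were made in Python 3.11.15 (pandas 2.3.3, numpy 2.4.6, matplotlib 3.10.9).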

Additional observations from a re-analysis of the deposited data

Results flagged for a closer look

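In groups of 4 libraries, 10 of 123 pairs of a gene and a group held 1 library far from the other 3, where chance gives about 1 in 20. Members vary together across the same libraries, so the pairs are not independent and their count cannot be weighed against that rate. C57 hyperoxia 4 was the high library for Irgm2 (45.5 FPKM, others 20.01 to 21.4), Irgm1 (13.1 FPKM, others 8.41 to 9.05), Zbp1 (11.0 FPKM, others 6.86 to 7.23) and Xaf1 (2.22 FPKM, others 1.28 to 1.42). C57 normoxia 1 was high for Gbp7 (4.95 FPKM, others 2.95 to 3.04). Isg15 was low in C57 hyperoxia 3 (7.45 FPKM, others 12.1 to 13.0).

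In BALBc hyperoxia, Irf7 was high in library 3 (7.37 FPKM, others 5.45 to 5.54) and Mx1 in library 4 (0.894 FPKM, others 0.342 to 0.420). Ifi44 (0.570 FPKM, others 1.56 to 1.76) and Oasl2 (0.567 FPKM, others 1.26 to 1.35) were low in library 2. The oxygen responses of Dhx58 differed between the strains by the interaction term, -1.18 on the log2 scale for BALBc minus C57 (adjusted p = 0.0427, limma).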

How the results depend on the processing

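Of 1494 values of named members under alternatives, 1425 kept their direction and side of the threshold, 62 lost a call, 7 gained one and 0 changed sign past the threshold. Fits without 1 library called 1 to 4 members higher with oxygen in C57 (2 with all libraries), 0 to 1 lower for the interaction (1 with all libraries) and 1 to 5 lower in BALBc in hyperoxia (2 with all libraries). The 1 interaction call became 0 without the filter, at a filter of 5 FPKM (which drops Dhx58), without the variance trend and with library class as a term. The C57 count became 1 without the filter. Without it Ifit2 (adjusted p = 0.0544) and Stat2 (0.0525) in room air and Ifi44 in hyperoxia (0.0778) were no longer called, and Ifi44 in hyperoxia was also lost at a pseudocount of 0.1 (0.0829) and with library class as a term (0.168). In room air, 6 rather than 10 members were called higher in BALBc at a filter of 5 FPKM, where 23 members were tested. Quantile normalization called 4 rather than 2 lower in hyperoxia. The 7 libraries with many single-fragment genes alone called 0 in C57, 0 for the interaction, 3 higher in room air, and 1 higher and 0 lower in hyperoxia, and the other 8 alone called 5 higher in room air. Both sets hold fewer samples, and the 1 C57 and 1 BALBc normoxia and 1 BALBc hyperoxia library of the first are assumed to vary like the C57 hyperoxia group. Without C57 normoxia 1 and C57 hyperoxia 4 together, 1 was called in C57, 0 for the interaction and 1 lower in hyperoxia. Beyond fewer genes or samples, the causes were not tested. With replicate number as a block, 2 members were again called in C57, Rnf125 (adjusted p = 0.00683) and Ifih1 (adjusted p = 0.0424), whereas Irf7 was not (adjusted p = 0.0505), and 4 of 15 libraries correlated best with their own number. Scaling moved the median of all genes by at most 0.01. Ifi44, Oas3 and Mx1 rest on few fragments, as does Oasl1 in BALBc hyperoxia (30 to 35 fragments per library).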
